A study of Mus musculus with 12 samples.

Results

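The cytochrome P450 genes measured here were those whose platform symbol had the form of Cyp followed by a family number, a subfamily letter and a member number, without Cyp4a10, Cyp4a14, Cyp24a1 and Cyp27b1. This gave 83 of the 19057 genes with 1 symbol on the platform. Of these, 32 P450 genes were measured, which means that at least 1 probe had a detection p-value under 0.01 in 1 or more of the 12 arrays, as had 11244 genes in all. The remaining 51 P450 genes were detected in no array. Total RNA was taken from the heart or the kidney of wildtype and PAI-1 knockout mice, all on a C57BL/6 background and 12 months of age. The knockout is global, with no tissue-specific promoter, and RNA came from the snap-frozen part of each organ, the rest having gone to histology. Each of the 4 groups had 3 arrays. Hearts are written as WT/HT for the wildtype and KO/HT for the knockout, and kidneys as WT/KID and KO/KID in the same way. No agent was given.

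Cytochrome P450 enzymes are haem proteins that insert an oxygen atom into their substrates, with electrons passed on by a reductase or, in mitochondria, by a ferredoxin. Members of the 1, 2 and 3 families are best known for oxidising drugs and toxicants, those of the 4 family for hydroxylating fatty acids and eicosanoids, and others for steps in the metabolism of sterols, bile acids, steroid hormones and retinoids. In kidney, the enzymes lie mainly in the proximal tubule and turn arachidonic acid into products that act on vessels and on salt transport. In mice, several of them are expressed more strongly in males.

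The levels are given as log2 of the quantile normalized signal of a gene's brightest detected probe, and a level at or near 6.7 lies at the lower limit of detection. Between 14281 and 16080 probes were detected in an array. Within groups, arrays correlated at 0.986 or above across the 19780 kept probes, which are not independent replicates, and KO/HT replicate 3 had the lowest values in the hearts, with 0.986 and 0.988. Cardiomyocyte genes marked the hearts, with a summed signal of 99908 to 111378 against 560 to 587 in the kidneys, and proximal tubule genes marked the kidneys. The labels give no sex, while the methods draw the hearts and kidneys from 3 mice of each genotype and speak of sex-matched controls. The labels also number hearts and kidneys alike. Xist, which coats the silenced X of females, gave a signal in all WT/HT arrays and in KO/HT replicates 2 and 3, at 7.88 to 8.17 log2, and in no kidney. Eif2s3y, a gene of the Y chromosome, was at 9.80 log2 in KO/HT replicate 1 and at 7.97 to 8.94 log2 in the 6 kidneys, and was not detected in the other 5 hearts. Kdm5d, also Y-linked, was at 7.05 log2 in KO/HT replicate 1 and at 6.44 to 6.52 log2 in the other hearts. It was at 6.64 to 6.81 log2 in the kidneys, detected in 1 WT/KID array and in all KO/KID arrays. Uty, another Y-linked gene, lay near the limit of detection without this pattern. It was at 6.57 to 6.90 log2 in the hearts, highest in WT/HT replicate 1, and at 6.61 to 6.71 log2 in the kidneys. The values of Xist and Eif2s3y go against the methods and the shared numbers. The heart and the kidney of 1 number had the same pattern of these genes in 1 of 6 cases, that of knockout replicate 1. Whether organs came from different animals or arrays carry a wrong label was not tested, and hearts and kidneys are named by their labels throughout. If the labels hold and Xist and Eif2s3y mark the sex, organ and sex cannot be told apart in the wildtype arrays, and knockout and wildtype hearts differ in their mix of sexes. Only KO/HT replicate 1 then allows a comparison of organs within 1 pattern of Xist and Eif2s3y. Leaving it out gave 26 P450 genes that passed between knockout heart and kidney, as many as with it. That count does not bear on sex, since organ and sex then cannot be told apart in the knockout arrays either.

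Promoters are shown for 4 members on which the organ comparison turns. The RefSeq promoter windows of assembly GRCm38.p6, which run from 250 bases before to 50 bases after a start site, held 24 of the 32 measured P450 genes. The 250 bases before the start are printed 5′ to 3′ on the strand of the gene. Cyp2a5 (chr7:26835089-26835338, plus strand) and Cyp2a4 (chr7:26306942-26307191, plus strand) are set side by side because they are close relatives, both far lower in hearts, and the capitals mark GTTAAT, a motif of the tubule and liver factor HNF1. Cyp1b1 (chr17:79715062-79715311, minus strand) is shown because it was detected in all 12 arrays. Its capitals mark CACGC, the reverse complement of the core GCGTG that the Ah receptor binds with Arnt. Cyp2e1 (chr7:140763569-140763818, plus strand) had the largest organ difference of the members and its stretch holds, on either strand, neither of these motifs nor AGGTCA, a motif of nuclear receptors.
Cyp2a5: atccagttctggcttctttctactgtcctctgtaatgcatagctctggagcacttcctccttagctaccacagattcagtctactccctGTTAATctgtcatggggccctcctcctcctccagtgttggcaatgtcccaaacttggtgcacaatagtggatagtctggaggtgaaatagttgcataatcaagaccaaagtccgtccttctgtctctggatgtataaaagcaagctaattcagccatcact
Cyp2a4: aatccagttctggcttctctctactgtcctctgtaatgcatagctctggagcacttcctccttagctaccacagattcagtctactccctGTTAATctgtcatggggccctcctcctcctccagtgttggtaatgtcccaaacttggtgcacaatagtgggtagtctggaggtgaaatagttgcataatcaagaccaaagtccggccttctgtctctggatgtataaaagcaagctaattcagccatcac
Cyp1b1: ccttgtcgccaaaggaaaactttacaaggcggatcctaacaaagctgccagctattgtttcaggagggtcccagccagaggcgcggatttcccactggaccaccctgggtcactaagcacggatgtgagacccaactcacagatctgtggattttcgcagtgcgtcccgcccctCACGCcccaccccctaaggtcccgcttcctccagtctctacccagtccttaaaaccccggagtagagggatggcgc
Cyp2e1: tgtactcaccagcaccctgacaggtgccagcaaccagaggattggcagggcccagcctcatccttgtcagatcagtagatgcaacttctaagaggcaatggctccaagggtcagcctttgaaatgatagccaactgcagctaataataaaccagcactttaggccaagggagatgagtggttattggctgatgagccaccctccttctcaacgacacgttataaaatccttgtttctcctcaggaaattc
The Cyp2a4 and Cyp2a5 stretches matched at 245 positions, 97.6% of an alignment with 2 gap positions. Their GTTAAT begins 160 and 161 bases before the start site. Over the whole windows and both strands, GTTAAT was found in 4 of the 24 P450 genes, Cyp2a4, Cyp2a5, Cyp2d26 and Cyp4f14, and in 8.24% of all 27025 genes with a window. GCGTG was found in 8 of the 24, among them Cyp1b1, Cyp2b10, Cyp2j9 and Cyp2j13, and in 35.2% of all genes. AGGTCA was found in 4 of the 24, Cyp2a4, Cyp2a5, Cyp2d40 and Cyp2f2, and in 18.1% of all genes. A match is a run of letters and not a shown binding site.

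The number of P450 genes detected differed between the organs. Between 12 and 16 were detected in each heart and between 27 and 31 in each kidney. Of the 32 measured, 13 were detected in every kidney but not in a single heart, 40.6% against 6.55% of all genes measured, and 10 were detected in all 12 arrays, 31.2% against 65.2%. The measured genes fell into the roles as 13 of 43 for xenobiotic metabolism, 15 of 25 for fatty acid and eicosanoid oxidation and 3 of 7 for sterol, bile acid and vitamin D metabolism, with Cyp20a1, an orphan enzyme, beside them. Some subfamilies were detected in neither organ, and others only in part. None of the 7 Cyp3a genes was detected, nor were Cyp1a1 and Cyp1a2, 12 of the 13 Cyp2c genes, 4 of the 5 Cyp2b genes and 4 of the 7 Cyp2j genes. The 5 genes of steroid hormone synthesis, Cyp11a1, Cyp11b1, Cyp11b2, Cyp17a1 and Cyp21a1, were not detected, nor was any of the adrenal cortex markers that have a probe, Star, Mc2r, Nr5a1 and Scarb1. The retinoid enzymes Cyp26a1 and Cyp26b1 and the vitamin D 25-hydroxylase Cyp2r1 were not detected. A gene that is not detected here lies under the limit of its probe, which is not evidence that it was absent.

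**Figure D1:**
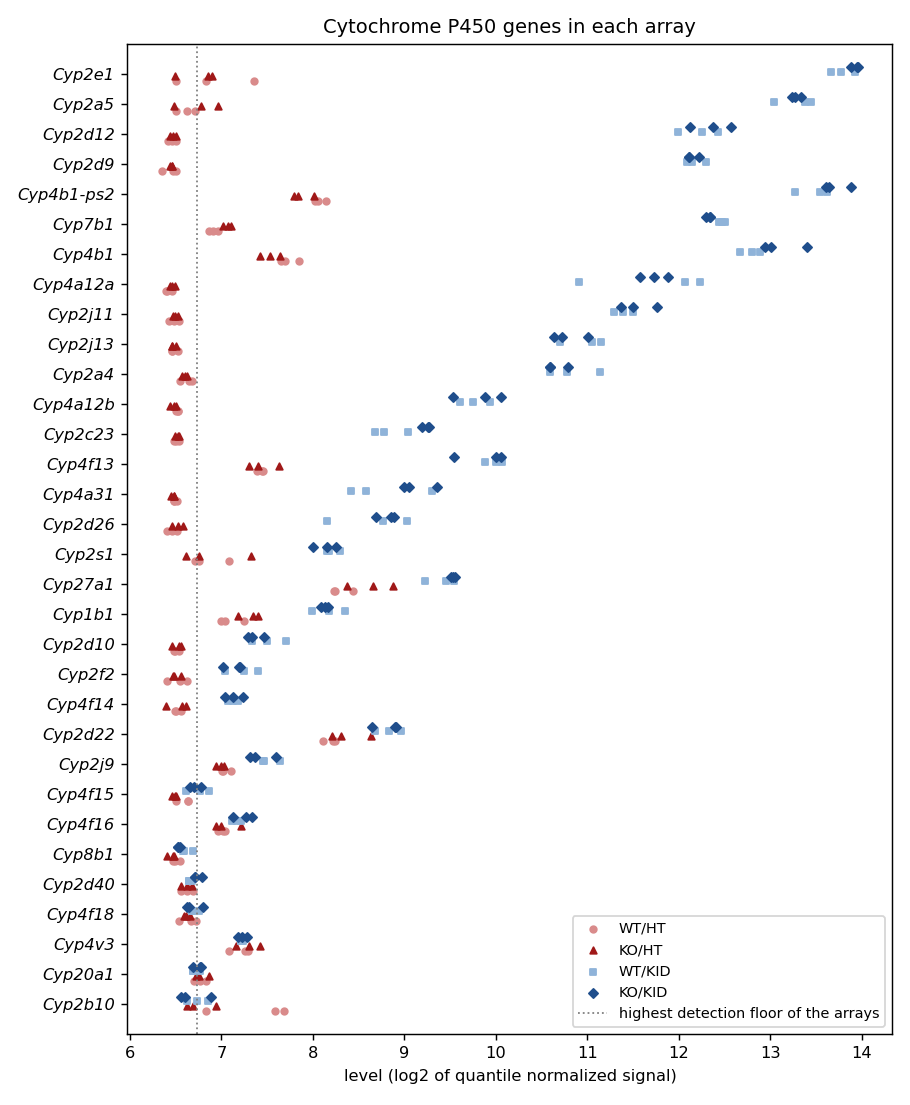
Level of each of the 32 measured P450 genes in each of the 12 arrays (x axis, log2 of the quantile normalized signal; 1 row per gene, ordered by its mean organ difference; symbols mark the 4 groups and the dotted line the highest detection floor of the arrays). The kidneys of the upper rows lie far to the right of the hearts, and in the lower rows, from Cyp4f15 to Cyp20a1, the organs lie close together, while Cyp2b10 has WT/HT replicates 2 and 3 at 7.58 and 7.68 log2, to the right of its other arrays.

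The comparison of hearts with kidneys asked which genes differ between the organs in each genotype. In wildtype mice, 24 of the 32 P450 genes were lower in the heart, 1 was higher and 7 did not pass the limma test at an adjusted p under 0.05, where 33.9% of all genes measured were lower and 36.1% higher. In knockout mice, 26 were lower and none higher (27 passed at an unadjusted p under 0.05, all lower, as did 34.3% of all genes in that direction), where 33% of all genes were lower and 35.4% higher. The median difference of the P450 genes was -1.77 log2 in wildtype and -1.76 log2 in knockout mice, and that of all genes was 0.01 and 0.02 log2. At the criteria of the study's methods, a false discovery rate of 10% with at least 1.5-fold, 23 were lower and 1 higher in wildtype hearts (18.4% and 18.8% of all genes) and 22 were lower and none higher in knockout hearts (17.6% and 18.2% of all genes). The 24 genes lower in wildtype hearts were all lower in knockout hearts too, and for each of them all 6 hearts lay below all 6 kidneys. The same arrays gave these calls, so the separation adds no support, and its share among all genes was not counted. Cyp4f15 and Cyp4f16 passed in the knockout mice alone, with differences of -0.22 and -0.20 log2, against -0.16 log2 for each in wildtype mice, and the interaction passed for neither. For Cyp4f16 this rests on the probe. Its other detected probe passed in wildtype mice alone, with -0.17 log2 (limma adjusted p = 0.0151), against -0.07 log2 (limma adjusted p = 0.277) in knockout mice. The 6 hearts include KO/HT replicate 1, the heart with the Y-linked transcript. This array was also in the fit that gave the 24 genes, so its place below the kidneys is no separate check. The 13 genes detected in every kidney and no heart passed the detection filter through the kidneys alone, which favours calls of a lower level in hearts. Without that filter, 25 of 83 P450 genes were lower and 3 higher in wildtype hearts, and 25 were lower and none higher in knockout hearts. The share of all genes called without the filter was not counted, so these counts do not show whether the P450 genes stand out. In bulk tissue, fewer cells of a type and less RNA per cell cannot be told apart.

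**Figure D2:**
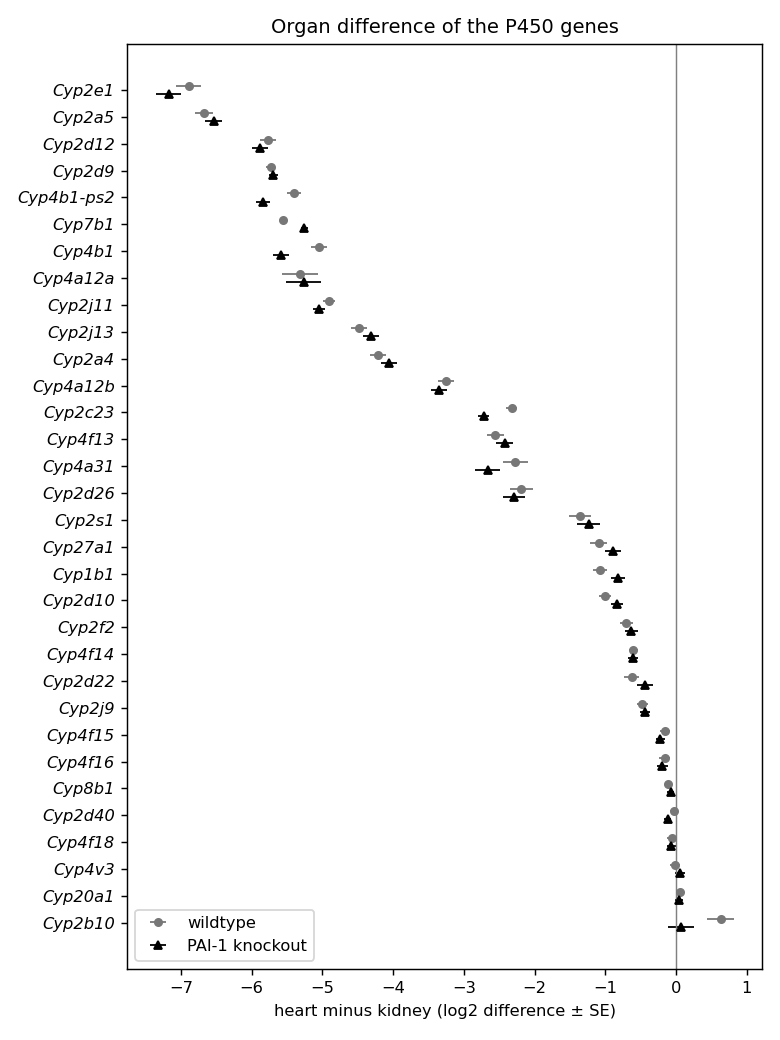
Heart minus kidney difference of the 32 P450 genes (x axis, log2 difference with its SE from the limma model; circles are wildtype and triangles knockout mice, 3 arrays per group). The differences run from -7.18 log2 for Cyp2e1 in knockout mice to 0.63 log2 for Cyp2b10 in wildtype mice, and those of both genotypes lie close together for most genes.

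Among the enzymes of xenobiotic metabolism, 11 of 13 were lower in the hearts of each genotype. Cyp2e1, which oxidises ethanol, acetone and other small molecules, was at 13.93, 13.77 and 13.66 log2 in WT/KID, at 13.88, 13.94 and 13.95 log2 in KO/KID, at 6.50, 7.36 and 6.83 log2 in WT/HT and at 6.49, 6.85 and 6.90 log2 in KO/HT. It was detected in 4 of the 6 hearts, and every heart lay far below every kidney. The difference was -6.89 log2 (SE 0.17, limma adjusted p = 2.28e-12) in wildtype and -7.18 log2 (SE 0.17, limma adjusted p = 1.58e-12) in knockout mice. Cyp2a5, the coumarin 7-hydroxylase, was at 13.45, 13.37 and 13.04 log2 in WT/KID, at 13.33, 13.27 and 13.23 log2 in KO/KID, at 6.50, 6.62 and 6.71 log2 in WT/HT and at 6.48, 6.77 and 6.97 log2 in KO/HT. Its organ difference was -6.67 log2 (SE 0.12, limma adjusted p = 1.17e-13) in wildtype and -6.54 log2 (SE 0.12, limma adjusted p = 1.41e-13) in knockout mice. Its 5 detected probes all gave a lower level in hearts, by -0.93 to -6.67 log2 in wildtype mice, so the size rests on the probe. Cyp2a4, a testosterone 15-alpha-hydroxylase in mice, was at 10.59 to 11.14 log2 in the kidneys and not detected in any heart, which makes the kidneys at least 17.4-fold higher in wildtype and at least 15.7-fold higher in knockout mice. Such a lower limit sets the kidney mean against the lowest signal called detected in the heart arrays. Cyp2a4 and Cyp2a5 are near-identical, and how far their probes share signal was not tested.

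In the Cyp2d subfamily, whose genes lie together on chromosome 15, 5 of 6 measured members were lower in hearts in both genotypes. Cyp2d12 was at 11.99, 12.25 and 12.42 log2 in WT/KID and at 12.37, 12.12 and 12.56 log2 in KO/KID, against 6.42 to 6.50 log2 in the 6 hearts, where it was not detected. Its kidneys were at least 45.6-fold higher in wildtype mice and at least 50.6-fold higher in knockout mice. Cyp2d9, a male-predominant testosterone 16-alpha-hydroxylase in mouse liver, was at 12.14, 12.30 and 12.09 log2 in WT/KID and at 12.11, 12.11 and 12.22 log2 in KO/KID, and was not detected in the hearts, at 6.35 to 6.51 log2. The kidneys were at least 44.1-fold and at least 43.9-fold higher in wildtype and knockout mice. KO/HT replicate 1 stood at 6.44 log2 for Cyp2d9, within the range of the other hearts. Cyp2d26 and Cyp2d10 were also not detected in hearts, with kidneys at least 3.83-fold and at least 1.74-fold higher in wildtype mice. For Cyp2d26 the size rests on the brightest probe. Its other 2 detected probes gave differences of -0.59 and -0.51 log2 in wildtype mice, against -2.19 log2 for the brightest. Cyp2d22 was detected in all 12 arrays and differed little, by -0.63 log2 in wildtype and -0.44 log2 in knockout mice, and Cyp2d40 lay at the limit of detection and passed in neither. Members of this subfamily are alike in sequence, so their probes may share signal.

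The other members of this role showed smaller differences than Cyp2e1, Cyp2a5, Cyp2a4, Cyp2d12 and Cyp2d9. Cyp2c23, an arachidonic acid epoxygenase, was detected in every kidney but not in the hearts, with kidneys at least 4.34-fold higher in wildtype and at least 5.86-fold higher in knockout mice. Cyp2f2, known for activating naphthalene in mouse lung, was not detected in hearts, with kidneys at least 1.43-fold and at least 1.36-fold higher. Cyp1b1, an Ah receptor target that oxidises oestrogens and aromatic hydrocarbons, was at 7.04, 6.997 and 7.25 log2 in WT/HT, at 7.40, 7.18 and 7.34 log2 in KO/HT, at 8.17, 7.99 and 8.35 log2 in WT/KID and at 8.17, 8.09 and 8.13 log2 in KO/KID. All kidneys lay above all hearts, by 2.11-fold in wildtype and 1.77-fold in knockout mice.

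Cyp2b10, the classic target of the nuclear receptor CAR, was the member that was higher in the heart. It was at 6.83, 7.58 and 7.68 log2 in WT/HT, at 6.85, 6.74 and 6.62 log2 in WT/KID, at 6.63, 6.69 and 6.94 log2 in KO/HT and at 6.56, 6.89 and 6.60 log2 in KO/KID. WT/HT replicates 2 and 3 stood above all other arrays, whereas WT/HT replicate 1 lay within the range of the kidneys. The difference was 0.63 log2 (SE 0.18, limma adjusted p = 0.00938) in wildtype mice and 0.07 log2 (SE 0.18, limma adjusted p = 0.752) in knockout mice, and the difference between these differences did not pass (limma adjusted p = 0.566). With an ordinary t-test, which the methods name outside the array analysis, the wildtype difference did not pass either (adjusted p = 0.119 over all kept probes).

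In the hearts, Cyp2e1 and Cyp2a5 were lowest in the same arrays as some proximal tubule genes, an order that genes of other kinds shared. Slc34a1, the sodium phosphate carrier of the proximal tubule, was at 6.44, 7.27 and 6.97 log2 in WT/HT and at 6.53, 6.76 and 6.98 log2 in KO/HT, against 14.95 to 15.06 log2 in the kidneys. Slc27a2, a fatty acid transporter of the same cells, was at 6.45, 7.12 and 7.25 log2 in WT/HT and at 6.49, 6.85 and 6.996 log2 in KO/HT. Replicate 1 of both heart groups was the lowest in its group for Slc34a1, Slc27a2, Cyp2e1 and Cyp2a5. The same held for Cyp2b10, Cyp4b1, Cyp4v3 and Cyp7b1, and for Cyp2a4 and Cyp2d26, which were not detected in hearts. It also held for the hepatocyte genes Ttr, Apoa1, Ahsg and Serpina1a, but not for Apoa2. Ttr was at 6.50, 7.43 and 7.29 log2 in WT/HT and at 6.77, 7.30 and 7.93 log2 in KO/HT. The order is thus not particular to proximal tubule genes, nor to Cyp2e1 and Cyp2a5, and its share among all genes was not counted. All 7 proximal tubule genes on the list were measured, with a summed signal of 630 to 805 in WT/HT, 657 to 749 in KO/HT, 95792 to 97865 in WT/KID and 98830 to 100078 in KO/KID. Slc22a6, Slc5a2 and Cubn were not detected in any heart, and the order did not hold for Slc22a6 and Slc5a2. What part such signals have in the heart levels of Cyp2e1 and Cyp2a5 was not tested.

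**Figure D3:**
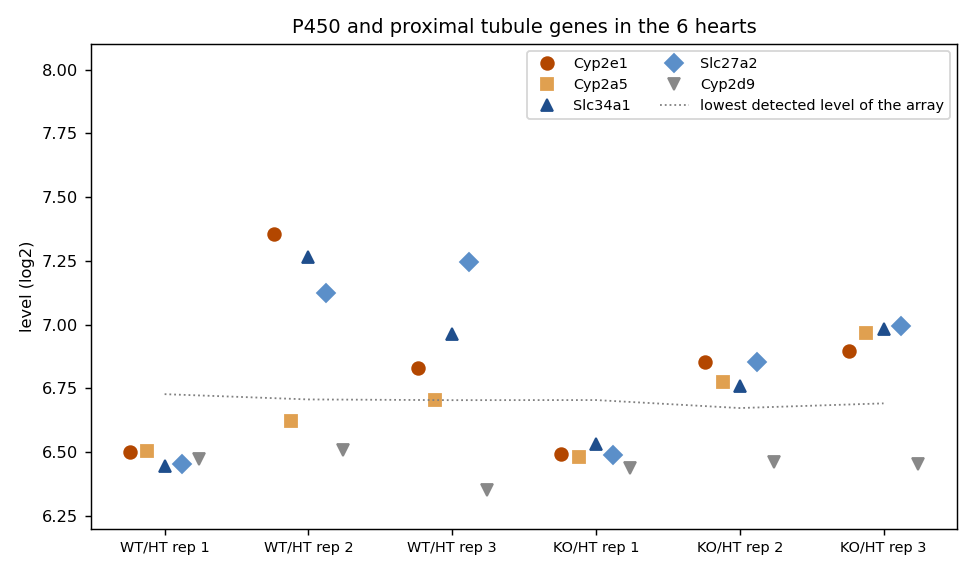
Levels of Cyp2e1, Cyp2a5 and Cyp2d9 and of the proximal tubule genes Slc34a1 and Slc27a2 in the 6 hearts (y axis, log2 of the quantile normalized signal; the dotted line joins the lowest detected level of each array). Replicate 1 of each group is the lowest for Cyp2e1, Cyp2a5, Slc34a1 and Slc27a2, and arrays are to be compared within a gene and not genes with each other.

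Among the enzymes of fatty acid and eicosanoid oxidation, 11 of 15 were lower in wildtype hearts and 13 of 15 in knockout hearts, and none was higher. Cyp4b1, which hydroxylates fatty acids and activates furan toxicants, was at 12.89, 12.79 and 12.66 log2 in WT/KID, at 12.94, 13.40 and 13.002 log2 in KO/KID, at 7.65, 7.85 and 7.70 log2 in WT/HT and at 7.43, 7.63 and 7.53 log2 in KO/HT. It was detected in every array, and the kidneys were 33.1-fold higher in wildtype mice (limma adjusted p = 6.15e-13) and 47.9-fold higher in knockout mice (limma adjusted p = 2.31e-13). The transcript of the neighbouring pseudogene Cyp4b1-ps2 was at 13.54, 13.62 and 13.26 log2 in WT/KID, at 13.61, 13.88 and 13.64 log2 in KO/KID, at 8.02, 8.06 and 8.15 log2 in WT/HT and at 7.83, 8.01 and 7.79 log2 in KO/HT. Its kidneys were 42.1-fold and 57.1-fold higher in wildtype and knockout mice. Given the likeness of the pseudogene to its parent gene, the 2 probes may read the same transcript.

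Cyp4a12a, the main omega-hydroxylase of arachidonic acid in male mouse kidney, was at 12.23, 12.06 and 10.91 log2 in WT/KID and at 11.58, 11.88 and 11.73 log2 in KO/KID, and was not detected in the hearts, at 6.40 to 6.50 log2. The kidneys were at least 32.4-fold higher in wildtype mice and at least 32.9-fold higher in knockout mice. WT/KID replicate 3 stood below the other kidneys, and the SD of 0.72 log2 in WT/KID was the largest of any member in any group. In the same array, Odc1, an androgen-responsive gene of the proximal tubule, was at 13.29 log2 against 13.80 and 13.82 log2 in the other WT/KID arrays, and Gusb was at 9.85 log2 against 10.46 and 10.47 log2. The other measured genes of that list were highest of the WT/KID arrays in replicate 3, Kap at 14.61 against 14.56 and 14.53 log2 and Slc7a12 at 6.69 against 6.57 and 6.57 log2. The part of these in the Cyp4a12a level was not tested. The near-identical Cyp4a12b did not share the low value, with 9.60, 9.75 and 9.93 log2 in WT/KID, and Cyp4a31 was highest of the WT/KID arrays in replicate 3, with 8.41, 8.58 and 9.30 log2. Neither was detected in a heart. Their kidneys were at least 8.28-fold and at least 4.15-fold higher in wildtype mice.

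The Cyp2j enzymes, epoxygenases of arachidonic acid, split in their levels in the heart. Cyp2j11 was at 11.38, 11.29 and 11.50 log2 in WT/KID and at 11.37, 11.75 and 11.50 log2 in KO/KID, and was not detected in the hearts, at 6.43 to 6.54 log2. Its kidneys were at least 25.6-fold higher in wildtype mice and at least 28.9-fold higher in knockout mice. Cyp2j13 was likewise not detected in hearts, with kidneys at least 19.05-fold and at least 17.1-fold higher. Cyp2j9 was detected in all 12 arrays and its kidneys were 1.39-fold and 1.36-fold higher.

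The Cyp4f enzymes, hydroxylases of leukotrienes and other fatty acids, showed small differences apart from Cyp4f13. Cyp4f13 was detected in every array, with kidneys 5.87-fold higher in wildtype and 5.37-fold higher in knockout mice. Cyp4f14 was not detected in hearts, with kidneys at least 1.33-fold and at least 1.36-fold higher. Cyp4f18 and Cyp4v3, a fatty acid omega-hydroxylase, passed in neither genotype, with differences within 0.07 log2 of 0. Cyp2s1, an enzyme found mainly outside the liver, was lower in hearts by -1.36 log2 in wildtype and -1.24 log2 in knockout mice. KO/HT replicate 1 was highest of the hearts for Cyp2s1, at 7.33 log2 against 6.62 to 7.08 log2 in the other 5.

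Of the sterol enzymes, Cyp7b1 and Cyp27a1 were lower in hearts in both genotypes. Cyp7b1, the oxysterol 7-alpha-hydroxylase, was at 12.44, 12.51 and 12.46 log2 in WT/KID, at 12.29, 12.34 and 12.34 log2 in KO/KID, at 6.86, 6.97 and 6.91 log2 in WT/HT and at 7.02, 7.11 and 7.07 log2 in KO/HT. The arrays of each group lay close together, and the difference had the smallest p of the members in both genotypes. The kidneys were 47.1-fold higher in wildtype mice (limma adjusted p = 3.54e-16) and 38.3-fold higher in knockout mice (limma adjusted p = 5.36e-16). Cyp27a1, the mitochondrial sterol 27-hydroxylase, was at 9.22, 9.54 and 9.45 log2 in WT/KID, at 9.51, 9.53 and 9.56 log2 in KO/KID, at 8.23, 8.25 and 8.44 log2 in WT/HT and at 8.87, 8.38 and 8.66 log2 in KO/HT. Its kidneys were 2.14-fold and 1.86-fold higher. Cyp8b1, the sterol 12-alpha-hydroxylase of bile acid synthesis, was detected in 1 array of WT/KID alone, at 6.68, 6.58 and 6.59 log2 in WT/KID, at 6.55, 6.53 and 6.52 log2 in KO/KID and at 6.41 to 6.55 log2 in the hearts, and did not pass. Cyp20a1 was at 6.69, 6.76 and 6.69 log2 in WT/KID, at 6.69, 6.78 and 6.76 log2 in KO/KID, at 6.77, 6.70 and 6.83 log2 in WT/HT and at 6.75, 6.72 and 6.86 log2 in KO/HT. Hearts and kidneys overlapped for Cyp20a1, and it passed in neither genotype.

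By position, all 8 measured P450 genes of chromosome 4, the Cyp2j, Cyp4a and Cyp4b members, were lower in hearts in both genotypes. On chromosome 7 it was 5 of 6, with Cyp2b10 as the exception, on chromosome 15 it was 5 of 6, with Cyp2d40 as the exception, and on chromosome 17 it was 3 of 5. Both measured members of chromosome 8, Cyp4f18 and Cyp4v3, passed in neither genotype. Of all genes measured, on any chromosome, 33.9% were lower in wildtype hearts and 33% in knockout hearts. The share on each chromosome was not counted, and probes of related members may share signal, so these counts show no pattern of position.

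Genes that act with the P450 enzymes were compared in the same fit, where 33.9% of all genes were lower and 36.1% higher in wildtype hearts and 33% and 35.4% in knockout hearts. Of 6 measured redox partners, 4 were lower and 2 higher in the hearts of each genotype. Cyb5a, Cyb5b and Cyb5r3, which pass electrons through cytochrome b5, differed by -2.65, -2.57 and -1.30 log2 in wildtype mice, and Cyb5r1 by 0.39 log2. Of 13 measured regulators, 8 were lower and 4 higher in the hearts of each genotype. The nuclear receptors Hnf4a, Nr1h4 and Vdr were lower by -4.89, -4.66 and -4.27 log2 in wildtype mice. Among the 4 that were higher, Cebpb differed by 0.66 log2 and Nr1i3, which codes for CAR, by 0.54 log2. Of 11 measured conjugating enzymes, 9 were lower and 1 higher in the hearts of each genotype. The glucuronosyltransferase genes Ugt3a2, Ugt1a10 and Ugt3a1 differed by -6.99, -5.74 and -5.48 log2 in wildtype mice, and the sulfotransferase gene Sult1a1 by 1.41 log2. Epoxide hydrolases, which open the products of epoxygenases, gave 1 lower, Ephx2 with -0.67 log2, and 1 higher of 4. Of the P450 enzymes named by other rules, Ptgis, the prostacyclin synthase, was higher in wildtype hearts by 1.11 log2, and Cyp51, the lanosterol demethylase, was lower by -2.24 log2.

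The comparison of knockout with wildtype hearts asked which genes differ in the heart when PAI-1 is lost. None of the 32 P450 genes passed the limma test at an adjusted p under 0.05, where 0.0178% of all genes were higher and 0.0623% lower. At an unadjusted p under 0.05, 3 were higher and 1 lower, where 4.24% of all genes were higher and 4.1% lower. With the ordinary t-test, unadjusted, 1 passed. At the criteria of the methods, which ask for 1.5-fold and p under 0.05 without adjustment, none was higher and 1 lower, Cyp2b10, where 0.267% of all genes were higher and 0.16% lower. The smallest p belonged to Cyp2b10, whose values by array are given above, with a difference of -0.61 log2 (SE 0.18, limma adjusted p = 0.381). Wildtype and knockout hearts overlapped for Cyp2b10, because WT/HT replicate 1 lay below KO/HT replicate 3. Without WT/HT replicate 1, Cyp2b10 fell by 0.88 on the log2 scale in knockout hearts (limma adjusted p = 0.0261). Nr1i3 was at 7.02, 7.19 and 6.98 log2 in WT/HT and at 6.85, 6.87 and 6.79 log2 in KO/HT, with a limma adjusted p of 0.283, and was named after its values were seen. Its part in the Cyp2b10 difference was not tested.

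Cyp7b1 was 0.15 log2 higher in knockout hearts (SE 0.05, limma adjusted p = 0.421), and the 3 knockout hearts lay above the 3 wildtype hearts. Cyp27a1 was 0.33 log2 higher (SE 0.11, limma adjusted p = 0.468), with KO/HT replicate 2 within the wildtype range. Its other 2 probes gave 0.23 and 0.18 log2. Cyp1b1 was 0.21 log2 higher (SE 0.10, limma adjusted p = 0.605), and the groups overlapped. Fibroblast genes had a summed signal of 7844 to 8186 in WT/HT and 8379 to 10469 in KO/HT, groups that do not overlap. Dcn, the brightest of them, was at 12.42 to 12.53 log2 in WT/HT and at 12.56 to 12.82 log2 in KO/HT. For Col1a1, Pdgfra, Dpt and Lum the groups overlapped, and Col1a1 stood above the wildtype hearts in KO/HT replicate 3 alone. The part of fibroblast genes in the P450 levels was not tested. In all, 1 P450 gene was higher and 4 were lower in knockout hearts with groups that do not overlap, where 5.54% of all genes were higher and 4.9% lower. The 4 were Cyp4b1, Cyp4b1-ps2, Cyp4a12b and Cyp4f15, and of these only Cyp4b1 and Cyp4b1-ps2 were detected in hearts, each with a difference of -0.20 log2. The count that passed stayed at 0 when KO/HT replicate 1 or 3 was left out.

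**Figure D4:**
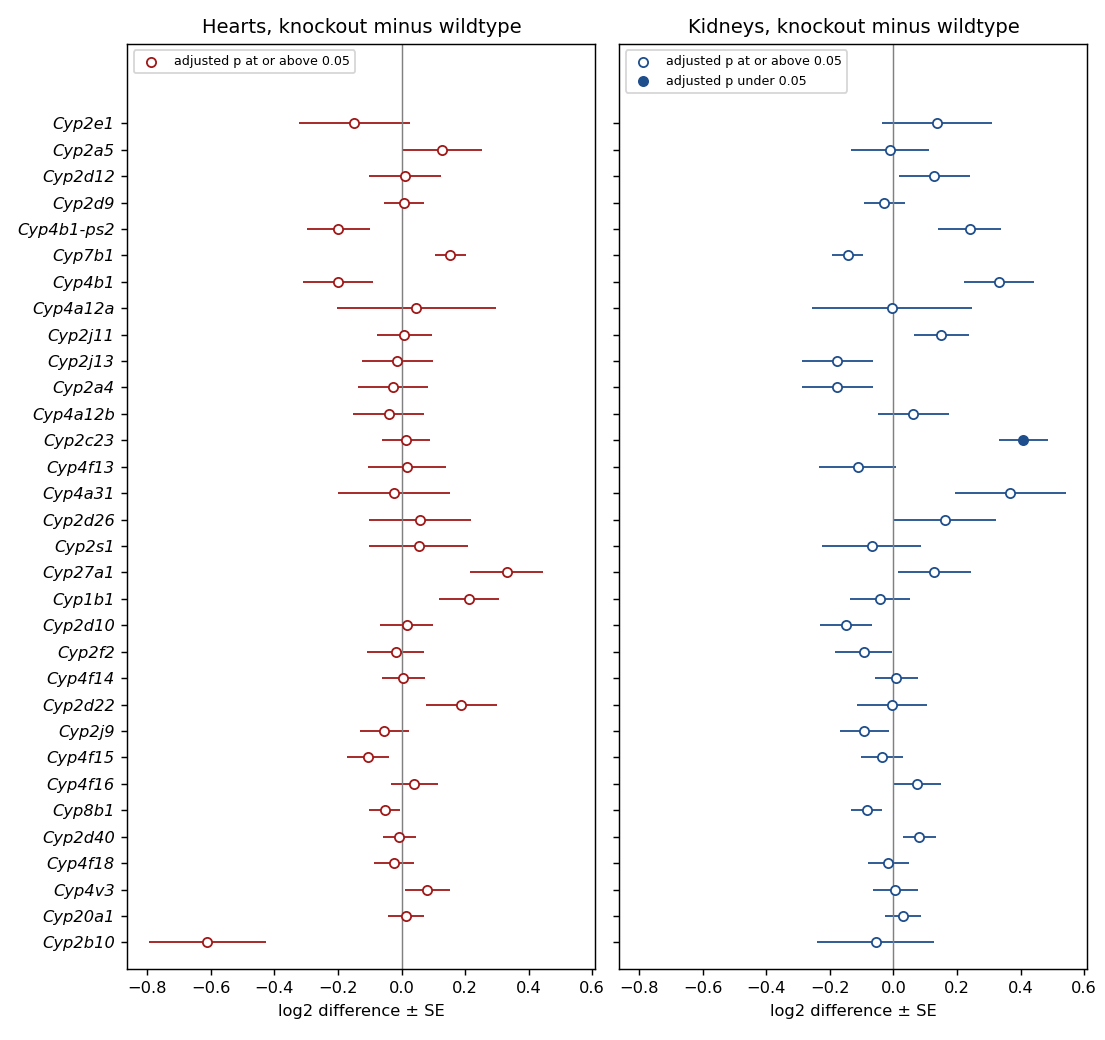
Knockout minus wildtype difference of the 32 P450 genes in hearts (left) and kidneys (right) on the same x axis (log2 difference with its SE from the limma model, 3 arrays per group; filled symbols passed at an adjusted p under 0.05). Cyp2c23 in kidneys, at 0.41 log2, is the filled symbol, and the farthest from 0 is Cyp2b10 in hearts, at -0.61 log2.

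In kidneys, 1 of the 32 P450 genes passed between genotypes, Cyp2c23, where 0.125% of all genes were higher and 0.196% lower in the knockout. It was at 8.78, 9.04 and 8.68 log2 in WT/KID and at 9.27, 9.26 and 9.19 log2 in KO/KID, and all knockout kidneys lay above all wildtype kidneys. It rose by 0.41 log2 (SE 0.08, limma adjusted p = 0.037), which is under 1.5-fold, and no P450 gene met the methods' criteria, met by 0.0889% of all genes with higher and 0.231% with lower levels. The call for Cyp2c23 held without WT/KID replicate 2 or KO/HT replicate 3 and was lost when any of the other 10 arrays was left out, with adjusted p-values of 0.0501 to 0.137 and a difference of 0.33 to 0.43 log2. Left without WT/KID replicate 3, Cyp4a31 passed in its place, with 0.64 log2 (limma adjusted p = 0.0158). The summed signal of the proximal tubule genes was 95792 to 97865 in WT/KID and 98830 to 100078 in KO/KID, and that of the 4 measured of 6 androgen-responsive kidney genes was 36113 to 39935 in WT/KID and 32917 to 33737 in KO/KID. In neither sum did the groups overlap. Odc1 and Kap carry most of the second sum, and Slc7a12 of the same list had its higher values in the knockout, at 6.78 to 6.86 log2 against 6.57 to 6.69 log2 (0.20 log2, limma adjusted p = 0.143). The part of either sum in the Cyp2c23 difference was not tested.

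At an unadjusted p under 0.05, 3 P450 genes were higher and 1 lower in knockout kidneys, where 4.8% of all genes were higher and 5.51% lower. Cyp4b1 was 0.33 log2 higher in the knockout (SE 0.11, limma adjusted p = 0.282), with all knockout kidneys above all wildtype kidneys, and Cyp4b1-ps2 was 0.24 log2 higher with groups that overlapped. Cyp7b1 was at a lower level in every knockout kidney than in any wildtype kidney, by -0.14 log2 (SE 0.05, limma adjusted p = 0.289). This direction turned when arrays were only centred on their medians, to 0.03 log2 (limma adjusted p = 0.814), a scaling that moved the median of all kept probes by 0.12 log2. In all, 3 P450 genes were higher and 2 lower with groups that do not overlap, where 8.24% of all genes were higher and 9.1% lower. The 5 probes of Cyp2a5 ran from -0.04 to 0.45 log2, and none passed.

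**Figure D5:**
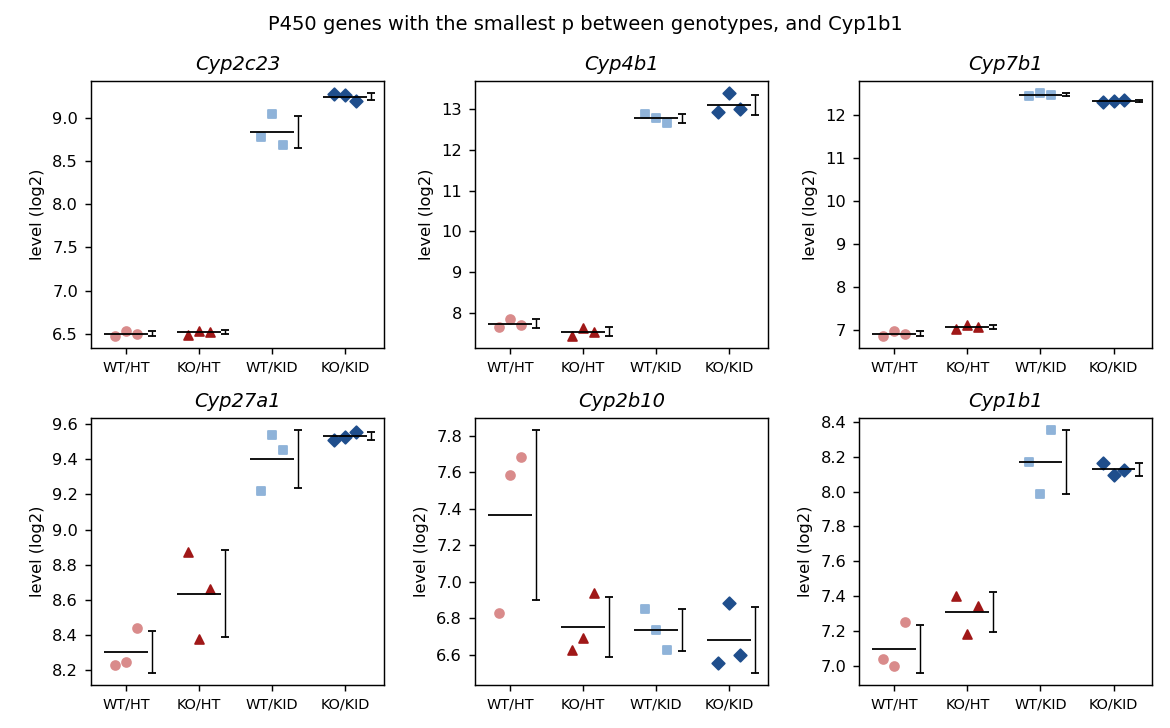
Levels of the P450 genes with the smallest p between genotypes and of Cyp1b1 in the 12 arrays (y axis, log2 of the quantile normalized signal, with a separate range in each panel; points are arrays, horizontal lines are means of 3 arrays and bars the SD). Cyp2c23 was higher in all KO/KID arrays than in all WT/KID arrays, and for Cyp2b10 WT/HT replicates 2 and 3 stand above the rest.

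The difference between the genotype differences of hearts and kidneys was tested as the interaction of genotype and organ. None of the 32 P450 genes passed (at an unadjusted p under 0.05, 1 was higher and 3 lower, against 4.79% and 4.22% of all genes and 9.01% in either direction), where 0.0267% of all genes were higher and 0.0178% lower. Cyp7b1 came closest, with 0.30 log2 (SE 0.07, limma adjusted p = 0.201), being higher in knockout hearts and lower in knockout kidneys without overlap in either organ. For Cyp2c23 the interaction was -0.39 log2 (SE 0.11, limma adjusted p = 0.29), so that its rise in kidneys was not shown to differ from the hearts, where it was not detected. Cyp4b1, with -0.53 log2 (SE 0.16, limma adjusted p = 0.342), was lower in all knockout hearts and higher in all knockout kidneys.

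None of the genes of the redox, regulator, epoxide hydrolase and conjugating lists, nor of the P450 enzymes named by other rules, passed in either genotype comparison. At an unadjusted p under 0.05, 1 of 6 redox partners and 2 of 13 regulators passed in each organ, and 4 of 11 conjugating genes, all higher in the knockout, passed in kidneys, where 8.34% of all genes passed in hearts and 10.3% in kidneys. Ptgis was at 9.13, 9.30 and 9.17 log2 in WT/HT and at 9.49, 9.58 and 10.55 log2 in KO/HT. All knockout hearts lay above all wildtype hearts, with KO/HT replicate 3 the highest, and the difference of 0.67 log2 (SE 0.21, limma adjusted p = 0.392) met the criteria of the methods. Cyp51 was 0.38 log2 higher in knockout kidneys (SE 0.13, limma adjusted p = 0.27), with groups that overlapped.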

How the data were processed

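RNA from hearts and kidneys was measured on Illumina mouse bead arrays. The deposited table holds, for each of 45281 probes and 12 arrays, a summary signal, which is a linear intensity that the authors exported without normalization. It also holds a detection p-value for each signal, deposited by the authors, which the sources used here do not explain further. A second deposited table holds the authors' normalized intensity for the same probes, for which the methods name lumi and quantile normalization, and served as an alternative. Arrays hold no molecule counts, so their number, 3 in a group, limits the precision.

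The signals were quantile normalized over the 12 arrays and log2 transformed, and 19780 probes were kept because 1 or more arrays had a detection p-value under 0.01. Symbols came from the platform annotation of 34903 probes and were updated through the RefSeq genes of GRCm38.p6. Where a gene had several detected probes, the brightest on average was used. The limma model had 1 coefficient for each group and was fitted to the 12 arrays together (8 residual degrees of freedom, 3.91 prior). Its moderated tests were two-sided, and Benjamini-Hochberg adjustment ran over the 19780 probes. R 4.3.3, limma 3.58.1, data.table (1.17.8), Python with matplotlib for the plots and exact string matching for the motifs were used. The fit was tested on simulated data.

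The members and all lists were chosen with earlier results of these data known. Every member may be named. Values in each array are given for up to 4 members per role with the largest organ difference, for those that passed or had 1 of the 3 smallest p-values between genotypes or in the interaction, and for Cyp1b1. Genes of other lists were named for the largest organ difference, up to 3 per list, and the others named were chosen after their values were seen. Cyp46a1 was counted with the sterol enzymes. The alternatives were neqc with an offset of 16, centring of arrays on their medians, the authors' normalized values, detection p-values under 0.05 in 1 array or under 0.01 in 3 arrays, and no filter. Others were a fit to the compared groups alone, a block for the replicate number, trend and robust moderation, an ordinary t-test, averaging a gene's probes, and omission of each array in turn.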

Additional observations from a re-analysis of the deposited data

How the results depend on the processing

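Over the alternatives, the number of P450 genes that passed between wildtype hearts and kidneys was 25 to 28 against 25, and between knockout hearts and kidneys 24 to 28 against 26, with no change of direction in any gene that passed. Leaving out 1 array gave 25 to 26 in both. In hearts, knockout against wildtype, the count was 0 throughout, except 1 without WT/HT replicate 1 (leave-one-out range 0 to 1). In kidneys it was 1 and became 0 with neqc (Cyp2c23 adjusted p = 0.107) and with no filter on dim probes (0.0516). It also became 0 with only the groups compared (0.169) and with the ordinary t-test (0.461). It became 5, all higher, when arrays were only centred on their medians, with Cyp27a1, Cyp2j11, Cyp4a31 and Cyp4b1 beside Cyp2c23. That centring is also what turned the kidney difference of Cyp7b1, to 0.0250 log2. The leave-one-out range in kidneys was 0 to 1. The adjusted p of Cyp2c23 ranged from 0.00252 to 0.461 over all alternatives, and its difference from 0.33 to 0.65 log2. The difference of Cyp2b10 in hearts ranged from -1.34 to -0.36 log2. The interaction count was 0 throughout. The causes of these changes were not tested.

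Samples with the same replicate number deviated together in some pairs only, with correlations of -0.20 to 0.21 over the pairs of groups compared. Xist and Eif2s3y differed between the heart and the kidney of 1 number in 5 of 6 cases, so the numbers were not taken as pairs. With the replicate number as a block, the counts were 26 and 26 between organs, 0 in hearts, 1 in kidneys and 0 for the interaction. Of single genes that passed between organs, 1 of 575 results in wildtype and 8 of 598 in knockout mice lost the call under an alternative, namely Cyp2b10, Cyp2d22 and Cyp4f16. Levels near 6.7 log2 lie at the limit of detection, so for genes not detected in hearts the folds given as "at least" are lower limits for the probe used and the fitted log2 differences are not.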
